A study of Mus musculus with 3 samples.

Results

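The regions described here are places on the autosomes of mouse liver chromatin where the mTOR ChIP stood far above the IgG control, with no ERRα region close by and no other strong mTOR region in the neighbourhood. Coverage of 3 ChIP-seq libraries (chromatin immunoprecipitation and sequencing) was averaged over 200-bp bins, with uncovered positions counted as 0. A bin was called where coverage exceeded 2.0 and the fold (ChIP plus 0.2 over IgG plus 0.2) was at least 3, adjacent bins were merged, and each region took the fold of the bin with its highest ChIP coverage. Of 9054 mTOR regions on 19 autosomes, 968 (10.7%) were strong, meaning at least 10-fold over IgG. Of these, 115 lay within 1 kb of 1 of the 21678 ERRα regions and 244 others had another strong mTOR region within 100 kb. The remaining 609 (6.73% of all mTOR regions, 62.9% of the strong ones) are the isolated strong regions. They were chosen by mTOR coverage, by its fold over IgG and by the absence of a called ERRα region, so those values are given as a description and carry no test.

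The study has 3 groups of 1 library each, all from the livers of C57Bl/6 males of 2 to 3 months: chromatin precipitated with an antibody to mTOR (Abcam), with an antibody to ERRα (Epitomics) or with rabbit IgG (Santa Cruz). Each ChIP library pooled 8 immunoprecipitations drawn from the chromatin of 26 livers, the number for IgG being not given in the sources used here. The labels name no treatment and no engineered allele, and no library from liver lacking mTOR was analysed here. There is therefore no replicate, and every value compares libraries. The headers give 62500000, 74200000 and 68800000 tags for mTOR, ERRα and IgG, and the authors scaled each track to 10000000 tags. Each ratio has an exact 95% interval (Clopper-Pearson) from the estimated tags of the 200-bp bin, without the 0.2 added, for counting error only; tags that are copies of 1 molecule would make it too narrow. Where a track gives 1 value over a stretch longer than the bin, the tags of the bin are that stretch's average, and the interval is approximate.

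mTOR is a serine/threonine kinase that integrates nutrient, energy and growth factor signals, and is the target of rapamycin. Most of its known substrates are cytoplasmic, but mTOR has also been found in the nucleus and at chromatin, including genes transcribed by RNA polymerase III. ERRα is an orphan nuclear receptor that binds DNA directly and is known for activating genes of mitochondrial energy metabolism. A kinase without a DNA-binding domain reaches chromatin through other proteins. Regions are given by position on the build mm9. A gene table on another build was not joined to these positions, so neither genes nor sequences are printed.

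The isolated strong regions were sharp peaks over a flat surrounding. Their median mTOR coverage in the highest bin was 10.2 (quartiles 7.30 and 14.7), against 0.5 in IgG (0.315 and 0.683) and 0.6 in the ERRα ChIP (0.4 and 0.9). That corresponds to about 85.6 mTOR tags, 4.60 IgG tags and 5.96 ERRα tags in the bin. In flanks 2 to 5 kb away on both sides, median coverage was 0.670, 0.617 and 0.650 for mTOR, IgG and ERRα. The 3 libraries were thus nearly level beside the peaks and apart at their centre. All 609 regions together spanned 408 kb and held 0.289% of the autosomal mTOR coverage.

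**Figure D1:**
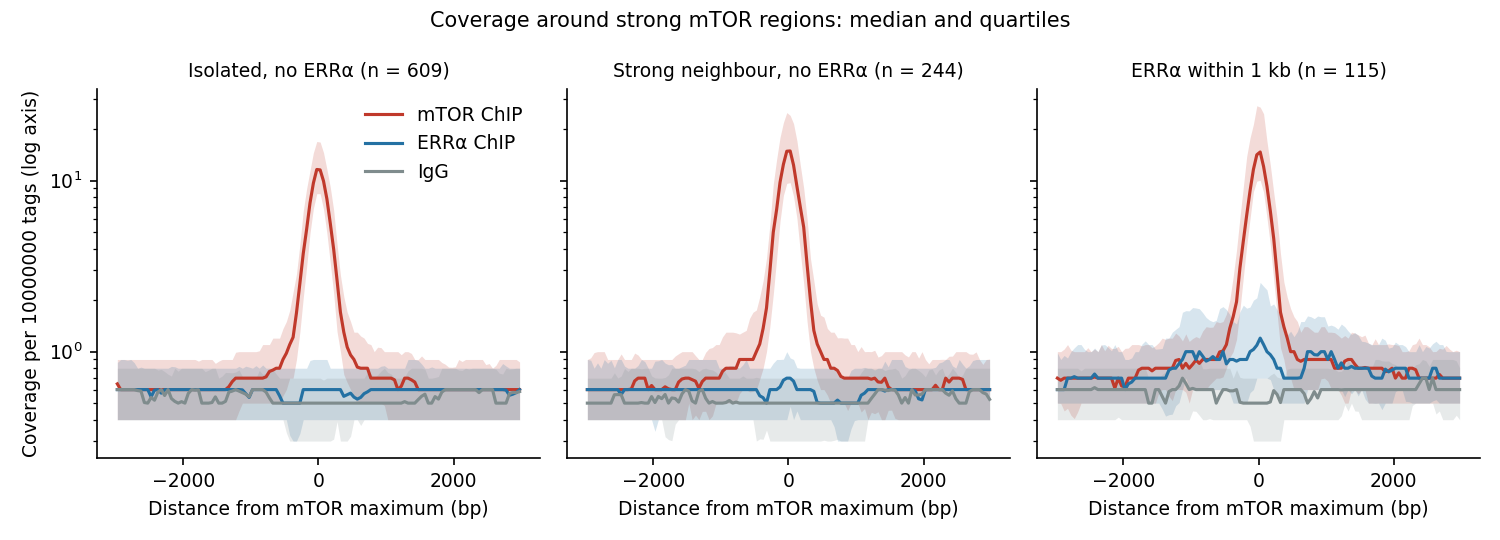
Median coverage per 10000000 tags (lines, log axis) with quartiles (bands) in 50-bp steps up to 3 kb from the mTOR maximum, for the 609 isolated strong regions, the 244 strong regions with a strong neighbour and the 115 strong regions near ERRα. The mTOR ChIP forms a narrow peak in each panel, while at the isolated regions the ERRα ChIP and IgG stay close to their flanks.

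A few regions stood far above the rest. The mTOR fold over IgG had a median of 14.1 (quartiles 11.3 and 20.3), and 333 of the 609 regions lay under 15-fold. At least 20-fold was reached by 156 regions (25.6%), 50-fold by 28 (4.60%), 100-fold by 5 and 300-fold by 3. The other strong regions reached the lower marks more often. With a strong neighbour, 42.2% were at least 20-fold and 11.1% at least 50-fold. Near ERRα the shares were 45.2% and 14.8%. In both classes 300-fold was reached by 0. These differences were not tested. The 10 regions with the largest summed coverage held 16.9% of the coverage of all 609.

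At chr9:82868801-82869800, the region with the largest fold, coverage in the highest bin was 165 for mTOR, 0.574 for ERRα and 0.1 for IgG. Its mTOR track rose from 0.2 at 500 bp before the maximum to 52.6 at 250 bp before it and 197.4 at the maximum, then fell to 38.8 at 250 bp and 6.9 at 500 bp after it. IgG at the maximum came from a single track interval of 1204 bp at 0.1, longer than the bin. The denominator of the 552-fold ratio is thus an average over that stretch, rounded to 0.1, plus the larger added 0.2. The counting interval, without the 0.2, ran from 273 to 60218. Against the ERRα ChIP, mTOR was 214-fold higher there (interval 125 to 748).

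The highest level was at chr19:3767401-3768800, with 426 for mTOR, 1.01 for ERRα and 0.6 for IgG. The summit reached 606.1, against 34.6 at 250 bp before it and 174.2 at 250 bp after it, so the sides were unequal, and the peak still measured 39 at 500 bp after the summit. At 1000 bp on either side mTOR coverage was back to 1 and 0.5. In the same bin mTOR was 352-fold above the ERRα ChIP (230 to 882).

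At chr11:86570601-86571800 coverage was 267 for mTOR, 1.64 for ERRα and 0.525 for IgG. This peak was close to symmetric, with 40.9 and 55.8 at 250 bp before and after a summit of 312.2. ERRα was 2.54-fold over IgG, with an interval (1.04 to 10.4) just above 1, and stood at 2.71 times its own flanks. The choice of low IgG values raises the ratio to IgG across the isolated strong regions. At this region IgG was 0.970 times its own flanks. Its coverage was near the median of 0.5 for these regions, a median that itself reflects that choice. The interval covers counting error only, and ERRα coverage stayed under the minimum of 2.0 for a called region. Whether ERRα was in excess here was not tested.

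The largest contrast between the ChIPs was at chr2:116946001-116947000. Here coverage was 108 for mTOR, 0.1 for ERRα and 0.4 for IgG. The ERRα value was the average of a track interval of 935 bp. mTOR was 362-fold above ERRα (192 to 42483.5) and 181-fold above IgG (96.9 to 916). In the first ratio the 0.2 added to ERRα exceeded its coverage of 0.1. The ERRα ChIP stood at 0.211 times its flanks. Its fold over IgG, 0.5, was among the 3 lowest of all isolated strong regions.

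The other 6 of the 10 largest folds were 149-fold at chr11:29273201-29274400, 93.5-fold at chr15:98702201-98703000, 91.5-fold at chr7:74517401-74518400, 89.5-fold at chr7:105963601-105964600, 86.7-fold at chr5:108494201-108495000 and 86.1-fold at chr17:87845801-87846800. The region on chromosome 15 had the closest ERRα region of the 10, at 1.6 kb, and yet ERRα in its highest bin was 1.20-fold over IgG (0.467 to 3.65). At chr7:74517401-74518400 ERRα coverage was 1.56 against 0.5 in IgG, 2.52-fold (1.04 to 10.4). At chr5:108494201-108495000 it was 0.587 against 0.83, 0.764-fold (0.199 to 2.29).

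By level rather than fold, the next 5 regions were chr11:58115401-58116400 (mTOR coverage 90.6), chr5:105011201-105012400 (68.8), chr11:50713001-50714800 (67.9), chr3:19527801-19529400 (62.4) and chr14:46051401-46052200 (53.6). Their IgG values were 0.689 to 1.61, while IgG at the 10 largest folds ran up to 0.872, so these ranges overlapped. The first of the 5 had the largest IgG coverage, 1.61, with 2.42 in the ERRα ChIP, and was 50.1-fold over IgG. Higher IgG values occurred only at chr16:98231401-98233400 (mTOR 32.1, IgG 2.09, ERRα 1.39) and chr5:31190201-31191400 (mTOR 53.5, IgG 1.81, ERRα 1.79). In these 3 regions of highest IgG, IgG stood at 2.65 to 3.15 times its own flanks, so the control also had a local maximum.

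At the threshold, the 5 regions just inside were chr4:105089801-105090400, chr12:21936201-21936600, chr19:34433801-34434200, chr5:144178001-144178800 and chr16:11288801-11289400, at 10.03-fold to 10.01-fold. Their mTOR coverage ran from 2.81 to 12.8. The 5 just outside were chr3:116641201-116641800, chr2:6063801-6064400, chr19:5316201-5316400, chr3:69176601-69177000 and chr7:137693801-137694200, at 9.997-fold to 9.978-fold, with mTOR coverage of 2.80 to 11.1. Nothing in these values separates both sets, and 199 of the 609 regions lay under 12-fold. Intervals were wide at this fold: at chr4:105089801-105090400 the ratio of mTOR to IgG ran from 6.16 to 25.3. Over all 609 regions the lower bound was above 3 in 609 and above 10 in 182 (29.9%).

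The mTOR level was also set beside the ERRα ChIP. The rule used the mTOR level and kept called ERRα regions out, which favours high ratios, so these values are a description and no check of the mTOR signal. mTOR was at least 10-fold above the ERRα ChIP in 433 of the 609 regions (71.1%), at least 5-fold in 594 and at least 3-fold in 608. Strong regions with a strong neighbour were much alike, at 77.0%, 98.0% and 100% in the same order. Near ERRα the shares were 47.8%, 76.5% and 87.8%. Among all autosomal bins with IgG coverage 0.0141% were at least 10-fold. The median of the 609 regions was 12.9-fold over ERRα (quartiles 9.21 and 19.2). The lower counting bound of the ratio was over 1 in 609 of them and over 3 in 593. The smallest ratio, 2.58 (1.46 to 5.66), was at chr13:58229201-58229600, where coverage was 3.94 for mTOR, 1.41 for ERRα and 0.2 for IgG.

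**Figure D2:**
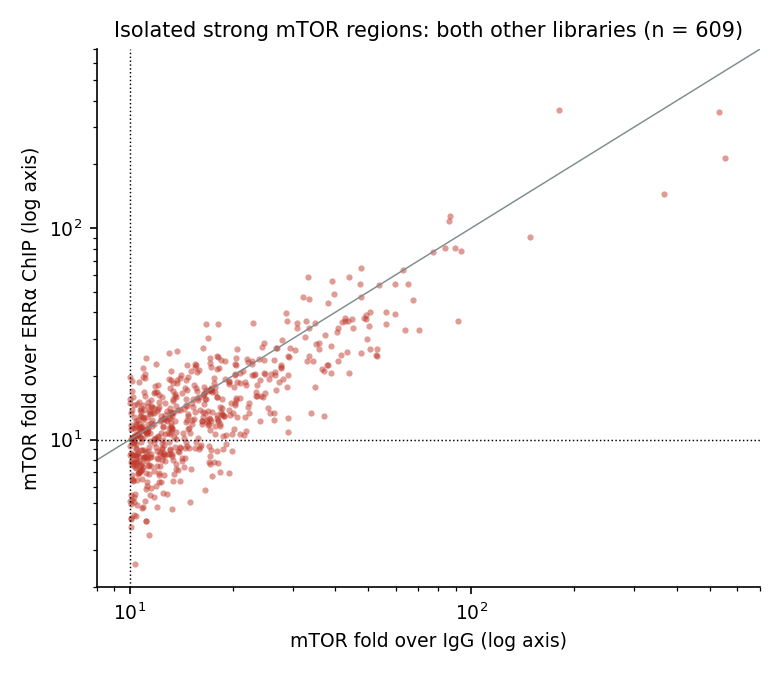
Each point is 1 of the 609 isolated strong regions, with the mTOR fold over IgG on the horizontal axis and the mTOR fold over the ERRα ChIP on the vertical axis (both log axes); dotted lines mark 10-fold and the grey line equal folds. No point lies left of 10-fold over IgG by choice, and 433 lie above 10-fold over ERRα.

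ERRα itself, limited from above by the exclusion of called ERRα regions within 1 kb, was close to background at these regions. Its fold over IgG in the highest mTOR bin had a median of 1.20 (quartiles 0.959 and 1.51), and the counting interval included 1 in 597 of the 609 regions, lay above 1 in 12 (1.97%) and below 1 in 0. It lay above 1 in 0.913% of all autosomal bins with IgG coverage, in 8 of the 244 strong regions with a strong neighbour (3.28%) and in 748 of the 8086 mTOR regions under 10-fold (9.25%). At the medians the bin held about 5.96 ERRα and 4.60 IgG tags, so the intervals were wide. Called ERRα regions were also kept out. Most intervals were therefore bound to include 1, and these counts do not show that ERRα was absent. At least 2-fold was reached in 50 regions (8.21%), against 2.41% of all autosomal bins. The ratio to IgG is raised by the choice of bins with low IgG, so the ratio of the ERRα bin to its own flanks was also taken. Its calculation uses no IgG, but the bins were still those chosen for low IgG. Over the 609 regions the ERRα and IgG ratios to flanks had a Spearman rho of 0.52. The flank ratio is therefore a description and no check free of that choice. The median ERRα ratio to flanks was 0.946 (0.614 and 1.37), beside 0.930 over all autosomal bins. For IgG the median was 0.803 (0.556 and 1.12), beside 0.953 over all bins, and for mTOR it was 15.6 (11.0 and 22.9), beside 0.936.

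High values of both controls were counted as well. ERRα was at least 2 times its flanks in 56 regions (9.20%, exact interval 7.02 to 11.8), where all bins gave 6.17%. IgG was at least 2 times its flanks in 14 regions (2.30%), where all bins gave 5.05%. Neither difference was tested, because there is 1 library of each kind and the rule excluded high IgG and called ERRα regions.

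The 3 highest ERRα folds over IgG were at chr13:58229201-58229600 (4.01-fold, 1.49 to 58.8), chr19:47556001-47556200 (3.21-fold, 1.29 to 16.1) and chr16:32419601-32420200 (2.96-fold, 1.10 to 22.0). The first and second exceeded 3-fold and were not called as ERRα regions because ERRα coverage was 1.41 and 1.73, under the minimum of 2.0. The 3 lowest were 0.458-fold at chr7:35269801-35270400, 0.476-fold at chr14:57245601-57246200 and 0.5-fold at the chromosome 2 region above, and each of their intervals included 1.

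The ERRα and IgG ratios to flanks varied with the mTOR level in these regions. With the 609 regions placed in 5 groups of 121 or 122 by mTOR coverage, the median ERRα ratio to flanks was 0.588 in the lowest group (coverage 2.22 to 6.76) and 1.23 in the highest (17.5 to 426). For IgG the medians were 0.437 and 0.992. The median ERRα fold over IgG did not rise in this way, at 1.33, 1.21, 1.06, 1.18 and 1.20 from the lowest to the highest group. In the lowest group both libraries made without the mTOR antibody were lower in the mTOR bin than beside it, and median IgG coverage there was 0.29 against 0.635 in the highest group. Regions with ERRα at least 2 times its flanks numbered 2, 9, 5, 17 and 23 from the lowest to the highest group, and those with IgG at least 2 times numbered 1, 0, 1, 2 and 10. Summed over each group, the ERRα excess over flanks equalled -4.54%, -0.382%, -0.615%, 0.595% and 0.609% of the mTOR excess from the lowest to the highest group, and the IgG excess -7.60%, -2.07%, -0.526%, 0.271% and 0.209%. Over the 609 regions mTOR and IgG coverage had a Spearman rho of 0.62, a description only, since the 10-fold threshold ties a low mTOR level to a low IgG level. ERRα and IgG coverage had a rho of 0.52, so the same limit holds for the ERRα ratio to flanks.

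**Figure D3:**
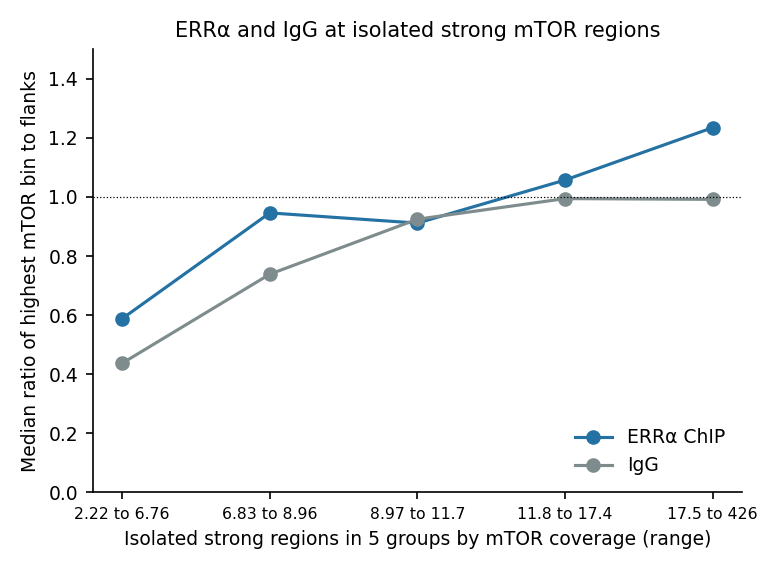
Median ratio of the highest mTOR bin to flanks 2 to 5 kb away for the ERRα ChIP and IgG, with the 609 isolated strong regions in 5 groups by mTOR coverage (ranges on the horizontal axis). ERRα goes from 0.588 to 1.23 and IgG from 0.437 to 0.992; the dotted line marks equality with the flanks.

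The shape of the peaks was not part of the rule. At base resolution the width at 50% of the mTOR maximum had a median of 325 bp (quartiles 281 and 374), against the 149 bp of coverage that each mTOR tag contributed. It lay under 200 bp in 28 regions (4.60%) and over 500 bp in 36 (5.91%). The median was 331 bp at strong regions with a strong neighbour and 329 bp at strong regions near ERRα, with order-statistic 95% intervals of 317 to 331, 323 to 341 and 312 to 340 bp in the same order. These intervals treat regions as independent draws from 1 library, and the widths differed by less than their span. mTOR regions under 10-fold measured 372 bp, a difference whose cause was not tested. Lower down, at 10% of the maximum, the peaks measured 770 bp at the median, and near the top, at 90%, 89 bp. At low maxima the 10% cut comes close to the flank coverage (median 0.670), so the 10% width can take in background. It ran up to 6400 bp.

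Outside the stretch around the maximum, coverage reached 50% of the maximum again within 1.5 kb in 56 of the 609 regions (9.20%). This was so in 36 of 244 (14.8%) with a strong neighbour and 17 of 115 (14.8%) near ERRα. Summits with no drop under 50% between them were not told apart. These shares were not tested against each other, and a neighbour nearer than 1.5 kb can count as such a return. The sides at 50% of the maximum were within 1.5 times of each other in 331 regions (54.4%).

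The widest peak was 1062 bp at chr8:4628001-4629400, where mTOR coverage was 8.7 at 250 bp before the maximum, 14.2 at it, and still 9.5 at 500 bp after it, with ERRα at 0.9 and IgG at 0.8 there. The next were chr17:22064801-22066000 (929 bp) and chr9:20411401-20412600 (883 bp). All 3 had moderate levels of 8.12 to 12.6. The narrowest were chr12:105171201-105171400 (134 bp), chr12:18412001-18412200 (145 bp) and chr2:92024001-92024600 (149 bp), all no wider than about 1 tag. Their mTOR coverage was 2.94 to 3.18 and their IgG coverage 0.1, so these regions passed 10-fold on a low level over almost no control signal.

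**Figure D4:**
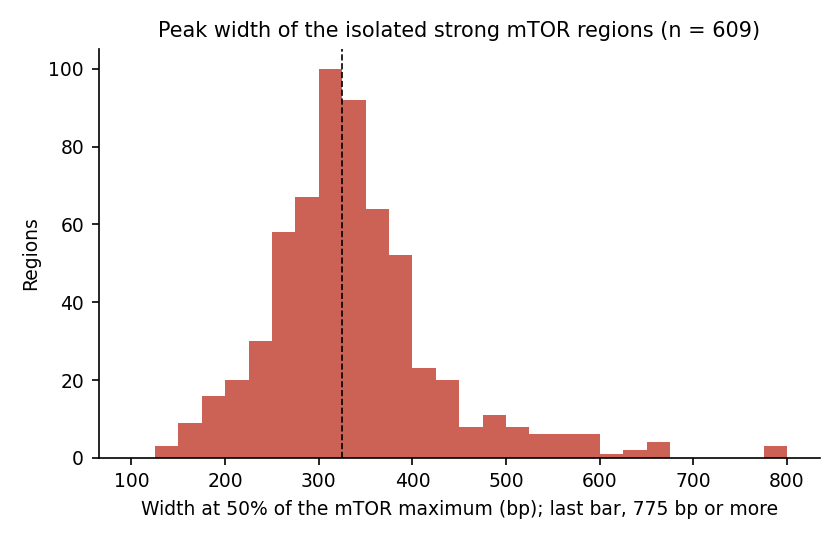
Number of isolated strong regions by width of the mTOR peak at 50% of its maximum, in 25-bp steps, with the last bar holding all wider peaks and the dashed line at the median of 325 bp. The distribution has 1 mode, with 28 regions under 200 bp and 36 over 500 bp.

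The rule fixes a distance of over 100 kb to the next strong mTOR region, and actual distances were larger, with a median of 685 kb (quartiles 274 and 1870). The closest were chr9:62864201-62865000 and chr9:62763201-62763600, which are 100.6 kb from each other, and chr16:28890001-28890600 at 101 kb. Weaker mTOR regions were allowed nearby. Another mTOR region of any fold lay within 100 kb of 458 regions (75.2%) and within 5 kb of 97 (15.9%), at a median distance of 39 kb. mTOR regions under 10-fold had such a neighbour within 100 kb in 78.9% of cases, a difference that was not tested. The most remote were chr16:81200601-81201400, with 2624 kb to the next mTOR region of any fold, chr4:73897601-73898400 with 1666 kb and chr14:49790601-49791400 with 1050 kb (1049.6). Their mTOR coverage of 7.98 to 11.5 was near the median of all.

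Although no ERRα region was allowed within 1 kb, ERRα regions were common farther out. The nearest was at a median of 19.6 kb (quartiles 7.2 and 46.6), within 5 kb of 106 regions (17.4%), within 20 kb of 307 (50.4%) and within 100 kb of 556 (91.3%). For strong regions with a strong neighbour these shares were 20.5%, 58.6% and 95.5%. Within 100 kb of the midpoint lay 4.16 ERRα regions on average (median 3), against a mean of 1.87 per 200 kb of covered autosomes. Strong regions with a strong neighbour had 5.14 on average and mTOR regions under 10-fold had 4.69. The nearest ERRα region had a median fold over IgG of 4.25. At chr16:81200601-81201400 the nearest ERRα region was 319 kb away.

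By chromosome, the isolated strong regions numbered 0.263 per covered Mb over all autosomes, with a median of 0.246 and a range of 0.171 on chromosome 1 to 0.455 on chromosome 11. Chromosome 9 followed with 49 regions (0.415 per Mb) and chromosome 19 with 23 (0.403). Over the 19 chromosomes the density went with that of ERRα regions (Spearman rho 0.75) and of mTOR regions under 10-fold (0.79), a description across chromosomes of unequal length and gene content. The make-up of the strong regions differed on chromosome 13, which had 68 strong mTOR regions, of which 22 (32.4%) were isolated and without ERRα and 39 had a strong neighbour. On chromosomes 7, 9 and 12 the isolated share was 77.3%, 76.6% and 79.4%. The strong mTOR signal of chromosome 13 was thus mostly grouped, and that of these 3 mostly scattered.

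**Figure D5:**
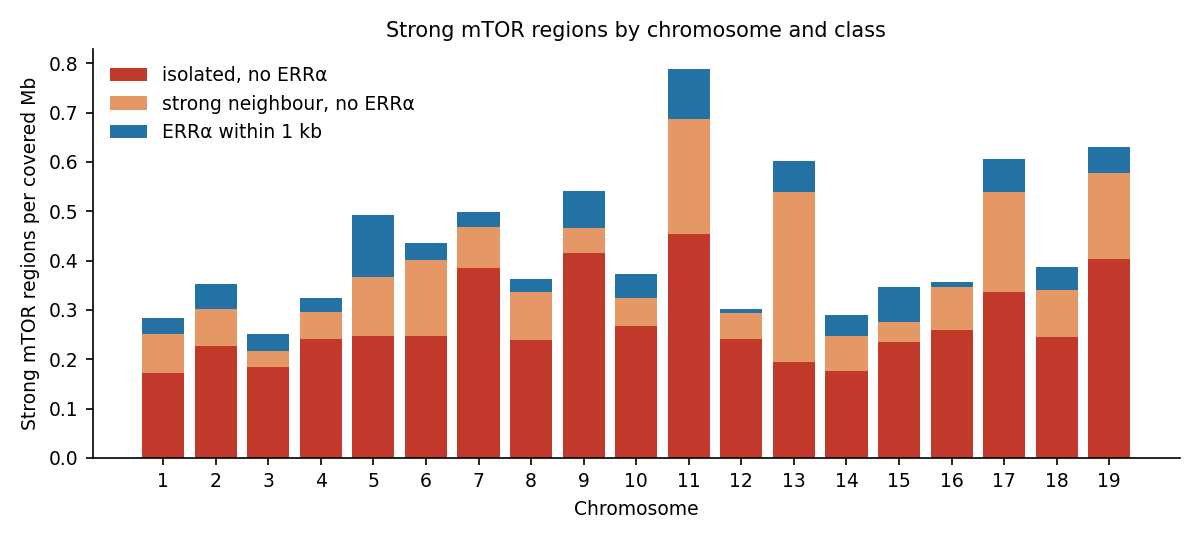
Strong mTOR regions per covered Mb on each autosome, stacked by class: isolated without ERRα, with a strong neighbour, and with an ERRα region within 1 kb. Isolated regions are densest on chromosome 11 (0.455 per Mb), and chromosome 13 has more regions with a strong neighbour (39) than isolated ones (22).

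With the libraries exchanged, so that IgG was called over the mTOR ChIP by the same rule, 124 regions were found, 0 of them at 10-fold or more, and the largest fold was 8.92. The mTOR regions were called in 0.138% and the ERRα regions in 0.348% of bins with IgG coverage. At the mTOR maximum the control tracks were coarse: the IgG value came from a track interval of 360 bp at the median and the ERRα value from one of 285 bp, against 23 bp in the mTOR track. The IgG interval was at least 200 bp in 546 of the 609 regions. Most IgG values were therefore averages over stretches longer than the bin, rounded to 0.1. With IgG raised by 0.05, the largest error of that rounding, 508 of the 609 regions met the rule.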

How the data were processed

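The deposited files are signal tracks of tag coverage, which the authors scaled to 10000000 tags per library, per the file headers. The submitters' processing notes name mm9, MACS 1.4.1 and BWA 0.5.9 without roles; duplicate handling, tag extension and the writer of the tracks were not given in the sources used here. Coverage summed to 149 to 150 bp (149.9) per tag. With 1 library per group no test was made and no p-value is given. Regions named by position follow a rule: the 10 largest folds, the next 5 levels, 5 on each side of the threshold, and 3 at each extreme of width, ERRα fold, IgG, remoteness and closeness. Regions and measures were chosen with earlier results of these data known. Tags per bin were approximated from coverage, library total and tag length. Simulated data for chromosome 19 (306712 bins), at the depth of each library, served to check the rule. Of 66 isolated regions planted at 30-fold, 65 were recovered, and 2 of 65 planted at 5-fold passed. Of 132 planted with ERRα in the same bins or with a strong neighbour, 0 were called. Counts were drawn independently per bin, and planted bins had moderate IgG coverage. No fold between 5 and 30 was planted, so recovery near the 10-fold threshold was not checked. The 1-kb distance to ERRα was not checked either. Alternatives covered 13 planned and 3 added settings. Chromosomes X, Y and M were outside the rule. Python 3.11.15, NumPy 2.4.6, pandas 2.3.3, SciPy 1.17.1 and Matplotlib 3.10.9 were used.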

Additional observations from a re-analysis of the deposited data

Results flagged for a closer look

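The rule covers the autosomes, but the X chromosome, outside that measurement, also held mTOR signal of this kind. Of its 53 mTOR regions, 13 were at least 10-fold over IgG, isolated and without ERRα, while IgG exceeded the mTOR ChIP in 5 regions of X and reached 10-fold in 0. The highest was chrX:157203801-157204400, with 17.9 for mTOR, 0.241 for ERRα and 0.5 for IgG, 25.9-fold over IgG. Next came chrX:132276801-132277400 with 16.0 (16.014) for mTOR, 0.2 for ERRα and 0.5 for IgG. Their density was 0.0920 per covered Mb, against 0.263 on the autosomes, a difference that was not tested. All livers were from males, and the minimum coverage of 2.0 and the added 0.2 were not adjusted for X. The densities are therefore not directly comparable. Chromosome Y held 2 mTOR regions, of which 1 met the rule, chrY:233801-234600, with 6.55 for mTOR, 0.3 for ERRα and 0.3 for IgG (13.5-fold); a single region on so little covered sequence gives 0.512 per covered Mb.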

How the results depend on the processing

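No paired analysis was possible because each group holds 1 library. Of the 16 alternatives, 15 kept the number of isolated strong regions within 1.5 times (408 to 739); a strong threshold of 20-fold left 183, by construction. The median width at 50% of the maximum stayed between 323 and 329 bp under all 16. Membership moved more than the number: of the 609 regions, 374 were found with a pseudocount of 0.4, 432 with a local background, 386 with the genome-wide mean replacing IgG, 486 with bins shifted by 100 bp and 414 with the ERRα ChIP as control, an alternative chosen after seeing the data like those of IgG raised by 0.05 and of bins with IgG above 2.0 left out. The share of strong regions that are isolated and without ERRα was 62.9%; it became 69.5% and 52.2% at 50 and 200 kb, 52.0% (51.96) with ERRα excluded to 5 kb, 66.8% with overlap only, 44.7% with the genome-wide mean (59.0%, or 59.05, without bins of high IgG), 58.8% at 20-fold and 66.9% with ERRα as control. The mTOR ratio to flanks moved to 19.4 with the pseudocount of 0.4, 18.7 with a local background, 16.4 with the genome-wide mean (16.41, and 16.42 without high IgG), 31.5 at 20-fold, where the fold was 29.3, and 16.5 with IgG raised. The ERRα fold moved to 1.01 with a local background, 1.26 at 20-fold, 0.966 with ERRα as control and 1.13 with IgG raised; its ratio to flanks moved to 1.03, 1.08 (1.07 without high IgG) and 0.751 with a local background, the genome-wide mean and ERRα as control. The IgG ratio to flanks moved to 0.969, 1.06 (1.064, and 1.063 without high IgG), 0.742 and 0.915 with a local background, the genome-wide mean, 20-fold and ERRα as control. The cause of these moves was not tested. Depth limits the ratios too, with about 4.60 IgG tags per bin at the median.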
